A study of Mus musculus with 24 samples.

Results

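The RNA of 9 enzymes or enzyme subunits listed with the tricarboxylic acid (TCA) cycle is described here: *Cs*, *Idh1*, *Idh2*, *Idh3a*, *Ogdh*, *Sdha*, *Sdhb*, *Sdhd* and *Fh1*. The 9 genes were chosen by symbol, by matching the Ensembl identifier of each row of the count table, without its version, to GENCODE M21. They are 9 of 22165 genes, and all 9 were among the 11878 genes that passed the filter on low counts. Libraries were made from bone marrow-derived macrophages (BMDMs), which are cells grown from marrow of 8 to 20 week old mice for 7 days with 20 ng/ml M-CSF, the growth factor of this lineage. Wild-type (WT) cells came from C57BL/6N mice bought from a vendor, and *Irg1-/-* cells from mice of the same strain that lack *Irg1*. *Irg1*, listed in current annotation as *Acod1*, encodes the enzyme that makes itaconate. Both genotypes were taken through 4 conditions with LPS at 100 ng/ml: no stimulation (Unstim.), a 24 h exposure and immediate harvest (LPS 24h), a 24 h exposure followed by new medium, 1 h of rest and a second dose of 3 h (the tolerized group, LPS 24h->LPS 3h), and that same schedule with the first dose left out (the non-tolerized group, LPS 3h). The rest in new medium is described for the LPS 3h and tolerized groups only. In LPS 3h against unstimulated cells, and in tolerized cells against LPS 24h, LPS and that step cannot be told apart. There were 3 cultures per group, 8 groups and 24 libraries. The sources do not say whether the cultures came from separate animals, so p-values measure the spread between these cultures only.

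In the TCA cycle, citrate synthase joins acetyl-CoA to oxaloacetate, isocitrate dehydrogenases turn isocitrate into 2-oxoglutarate, the oxoglutarate dehydrogenase complex makes succinyl-CoA, and succinate dehydrogenase (SDH) oxidizes succinate to fumarate, which fumarase hydrates to malate. SDH is also complex II of the respiratory chain. Itaconate is made from cis-aconitate, an intermediate of the cycle, and is a known inhibitor of SDH, while LPS-activated macrophages are known to accumulate both itaconate and succinate. Genotype comparisons therefore ask whether cells without itaconate synthesis differ in the RNA of the cycle that supplies and is inhibited by this metabolite.

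Reads assigned to genes ranged from 3927378 to 20430359 per library. Levels are given as CPM, counts scaled to a fixed library size after TMM normalization, and because the protocol counts transcript ends, CPM are compared between samples and not between genes. The TMM factors were 1.27 to 1.36 in unstimulated and 0.666 to 0.728 in LPS 3h libraries, and values of that comparison depend on them. Differences are log2 fold changes ± SE, and an adjusted p is from edgeR's quasi-likelihood test after Benjamini-Hochberg adjustment over 11878 genes, with a threshold of 0.05. The deleted gene checked the labels under LPS: *Acod1* stood at 3794 to 28063 CPM in the 9 LPS-treated WT libraries and at 1.58 to 26.4 CPM in the 9 LPS-treated *Irg1-/-* libraries, whereas unstimulated cells of both genotypes were at 5.82 to 11.9 CPM. The summed level of 8 macrophage markers was 3319 to 9833 CPM, and the T cell, B cell and NK cell lists summed to at most 11.3, 2.45 and 4.15 CPM. Neutrophil markers (7 genes, none of them at 3 counts or fewer throughout) summed to 385 to 672 CPM in unstimulated and non-tolerized libraries and to 64.7 to 229.7 CPM in libraries with a first dose of 24 h. Fibroblast or stromal markers (4 genes) summed to 261 to 430.0 CPM in the former and to 103 to 245 CPM in the latter. The share of reads on mitochondrially encoded genes was 2.47% to 3.50% in unstimulated libraries and 0.709% to 2.57% with LPS. The part of these shifts in the results was not tested, and in bulk RNA fewer cells of a type and less RNA per cell cannot be told apart. A prefix in the labels divides the libraries into 4 sets. The labels do not say what it stands for, and the sets are called pools here. All 6 unstimulated libraries were in pool 4, which held 1 library of each LPS treatment in WT cells and none in *Irg1-/-* cells, so that treated and unstimulated *Irg1-/-* libraries share no pool, and pool and LPS cannot be told apart within that genotype.

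*Idh1*, *Idh2* and *Fh1* fell in both genotypes after LPS 3h. *Idh1* and *Fh1* were also lower in both genotypes after 24 h, and *Idh2* passed the threshold at 24 h in WT cells only, although the responses of the genotypes did not pass as different. *Idh1* and *Idh2* encode the NADP-linked isocitrate dehydrogenases, and both make NADPH. The first is in the cytosol and peroxisomes, outside the mitochondrial cycle, and the second is in mitochondria. *Fh1* encodes fumarase. In WT cells, 3 of 9 genes were lower after LPS 3h and 0 were higher, where 16.3% of all genes tested were called lower and 15.8% higher. In *Irg1-/-* cells, 4 of 9 were lower and 0 higher, against 18.9% and 17.0% of all genes. After LPS 24h, 3 of 9 were lower in WT cells (6.98% of all genes) and 2 of 9 in *Irg1-/-* cells (6.38%), and 0 of 9 were higher in either (9.25% and 7.31%). The median log2 fold change of the 9 genes after LPS 3h was -0.556 in WT and -0.539 in *Irg1-/-* cells, beside -0.178 and -0.198 over all genes, and -0.172 and -0.265 after LPS 24h, beside 0.00168 and -0.00399. The comparisons at 3 h and 24 h share the unstimulated cultures of their genotype.

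*Idh1* and *Fh1* were called lower in each comparison of LPS with unstimulated cells, and their likeness to each other was not tested. Their promoters, and those of *Sdha* and *Sdhb*, 2 subunits of one complex, are shown for orientation. They are RefSeq sequences on GRCm38.p6, cut to the bases before both the RefSeq and the GENCODE start of the gene and written 5′ to 3′ on the strand of the gene. Capitals mark matches, on either strand, to the Sp1 letters GGGCGG in *Idh1* (chr1:65186501-65186729, minus strand), *Fh1* (chr1:175625636-175625885, minus strand) and *Sdhb* (chr4:140961021-140961202, plus strand), and to the NRF1 letters GCGCANGCG in *Sdha* (chr13:74350281-74350490, minus strand).
Idh1: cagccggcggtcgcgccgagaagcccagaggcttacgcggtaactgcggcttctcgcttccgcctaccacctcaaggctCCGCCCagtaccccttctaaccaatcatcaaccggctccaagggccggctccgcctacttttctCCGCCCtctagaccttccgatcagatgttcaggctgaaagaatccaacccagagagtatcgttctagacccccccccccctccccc
Fh1: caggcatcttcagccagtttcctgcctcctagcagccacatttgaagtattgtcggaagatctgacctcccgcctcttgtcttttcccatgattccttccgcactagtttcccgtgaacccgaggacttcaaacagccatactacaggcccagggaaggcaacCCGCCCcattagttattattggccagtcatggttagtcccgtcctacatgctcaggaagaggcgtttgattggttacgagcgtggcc
Sdha: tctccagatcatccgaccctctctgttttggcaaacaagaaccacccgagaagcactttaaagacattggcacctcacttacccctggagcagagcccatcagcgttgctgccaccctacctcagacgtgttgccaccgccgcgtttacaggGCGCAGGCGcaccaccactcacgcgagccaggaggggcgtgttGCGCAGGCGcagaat
Sdhb: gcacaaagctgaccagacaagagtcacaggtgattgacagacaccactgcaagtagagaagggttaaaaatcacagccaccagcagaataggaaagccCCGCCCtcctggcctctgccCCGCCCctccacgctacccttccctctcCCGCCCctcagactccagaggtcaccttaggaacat
In the uncut 250 bases before the RefSeq start, GGGCGG was found in 6 of the 8 promoters held (*Cs*, *Idh1*, *Idh2*, *Ogdh*, *Sdhb* and *Fh1*) and in 32.7% of 32851 RefSeq promoters. G and C made up 52.8% to 67.2% of these 8 windows, beside a median of 52.4% over all promoters, and the part of this in the motif counts was not tested. The NRF1 letters were found in *Sdha*, 3 times, and in *Sdhd*, and in 5.16% of all promoters. *Sdhd* also held the ETS letters CCGGAAG (6.91% of all), and *Ogdh* the CRE letters TGACGTCA (1.55%). The letters searched for ERR (TNAAGGTCA), for an E-box (CACGTG) and for NF-kappaB (GGGACTTTC and GGGAATTTC) were in none of the 8 windows and in 1.14%, 6.02% and 0.524% of all promoters. Sites that differ from these letters were not searched. The promoter of *Idh3a* is not shown.

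*Idh1* (ENSMUSG00000025950.16, chr1:65158616-65186500, minus strand, GRCm38) had the largest fall of the 9 genes in all 4 comparisons of LPS with unstimulated cells. In WT cultures it stood at 160.3, 211 and 225 CPM unstimulated, at 93.9, 57.6 and 64.3 CPM after LPS 3h and at 79.9, 73.0 and 52.3 CPM after LPS 24h. In *Irg1-/-* cultures it stood at 266, 258 and 126 CPM unstimulated, at 65.3, 78.1 and 38.7 CPM after LPS 3h and at 67.5, 80.8 and 54.7 CPM after LPS 24h. Each LPS-treated culture was below each unstimulated culture of its genotype, although unstimulated *Irg1-/-* culture 3 was well under the other two. The log2 fold change after LPS 3h was -1.47 ± 0.32 in WT (adjusted p = 0.000522) and -1.84 ± 0.32 in *Irg1-/-* cells (adjusted p = 3.42e-05). After LPS 24h it was -1.54 ± 0.32 (adjusted p = 0.000614) and -1.68 ± 0.32 (adjusted p = 0.000265). These 4 calls held in each of the 8 alternatives and with each library left out. With the library pool as a term the log2 fold changes were -1.61 and -1.86 after LPS 3h and -1.68 and -1.93 after LPS 24h. For *Irg1-/-* cells, the offset of pool 4 in that fit came from LPS-treated WT libraries, because pool 4 held no treated *Irg1-/-* library. Within pool 4, the log2 difference between the 1 WT library of each time point and the mean of the 3 unstimulated WT libraries was -1.61 and -1.91. The LPS 24h library there, culture 3, had the lowest macrophage marker sum (3319 CPM) and mitochondrial read share (0.709%) of all libraries.

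**Figure D1:**
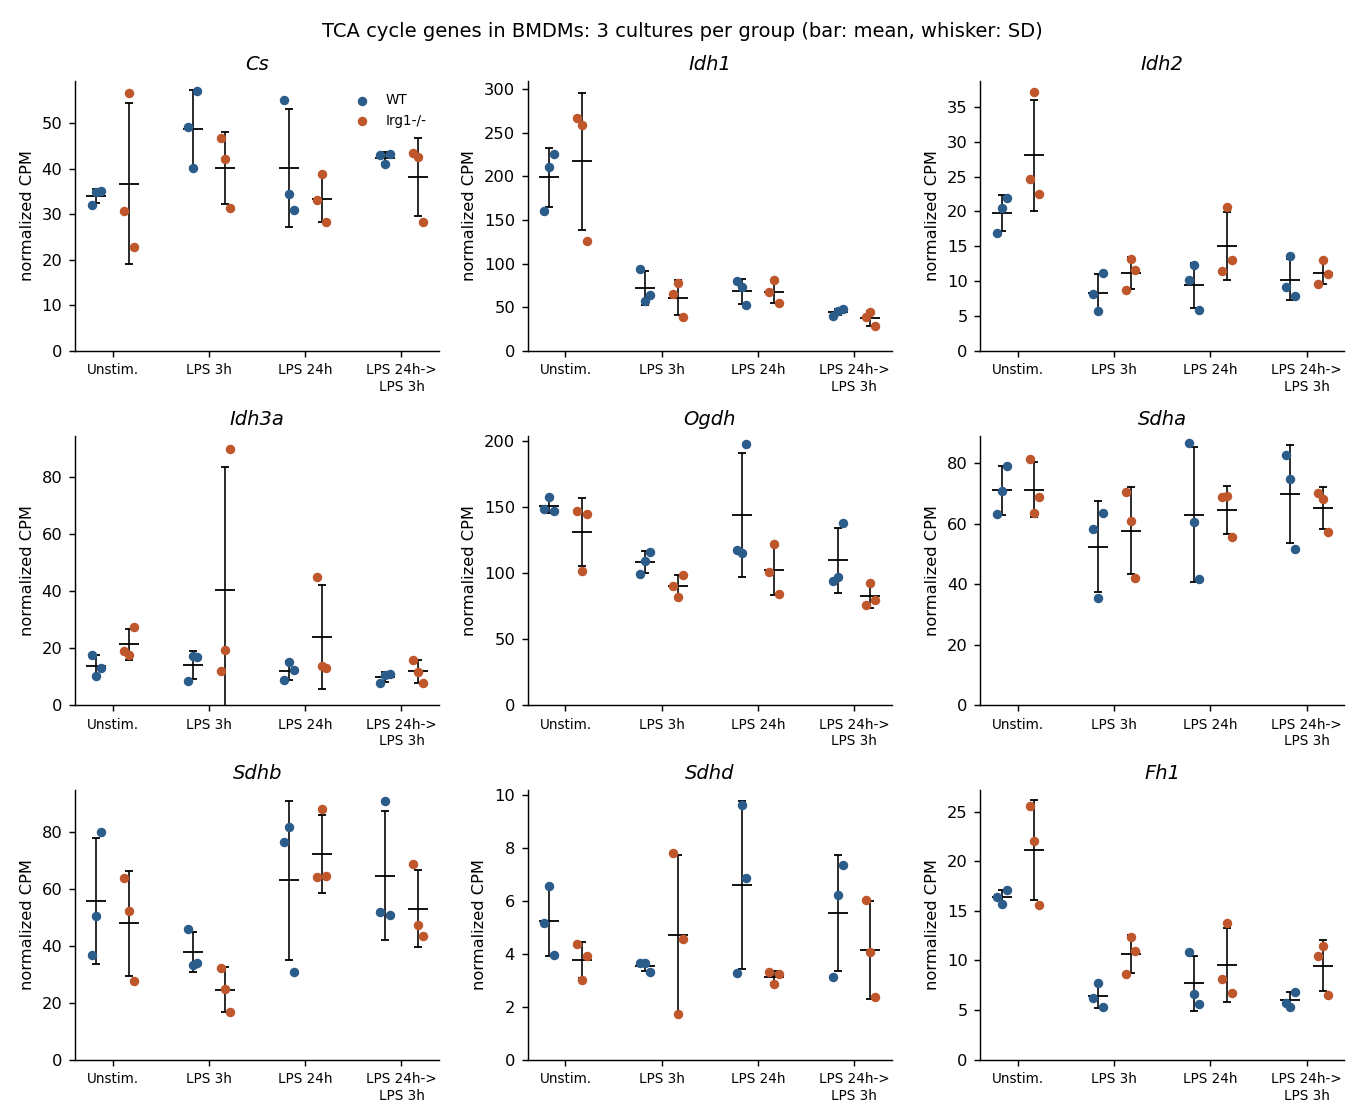
Normalized CPM (y axis, from 0) of the 9 genes in the 4 treatments (x axis), with WT cultures in blue and *Irg1-/-* cultures in orange; points are single cultures, horizontal bars the mean and whiskers the SD of 3 cultures, and the lower whisker of *Idh3a* in *Irg1-/-* LPS 3h runs below the axis. *Idh1*, *Idh2* and *Fh1* are higher in unstimulated cells than after LPS, and a single *Irg1-/-* LPS 3h culture holds *Idh3a* at 90.1 CPM.

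*Fh1* (ENSMUSG00000026526.14, chr1:175600374-175625635, minus strand) was at 16.4, 15.7 and 17.1 CPM in unstimulated WT cultures. It stood at 6.20, 7.71 and 5.30 CPM after LPS 3h and at 10.8, 6.61 and 5.64 CPM after LPS 24h. In *Irg1-/-* cultures it was at 25.6, 22.1 and 15.6 CPM unstimulated, 8.65, 12.4 and 10.9 CPM after LPS 3h, and 8.11, 13.7 and 6.75 CPM after LPS 24h. The treated and unstimulated cultures did not overlap in either genotype. The log2 fold change after LPS 3h was -1.35 ± 0.37 in WT (adjusted p = 0.00488) and -0.98 ± 0.36 in *Irg1-/-* cells (adjusted p = 0.0340). After LPS 24h it was -1.09 ± 0.36 (adjusted p = 0.0349) and -1.14 ± 0.36 (adjusted p = 0.0293). The fall at 3 h in WT held in all 8 alternatives and with each library left out. The other 3 calls depended on single libraries: in *Irg1-/-* cells at 3 h the call was kept only without the third unstimulated culture, and was lost without any other of the 6, with adjusted p from 0.0581 to 0.148. At 24 h, 5 of 6 such fits in WT (adjusted p from 0.0585 to 0.111) and 4 of 6 in *Irg1-/-* cells (from 0.0597 to 0.163) lost the call, while the log2 fold change stayed between -1.43 and -0.97 and between -1.50 and -0.95. With the pool as a term the value in *Irg1-/-* cells was -1.47 at 3 h (adjusted p = 0.110) and -1.39 at 24 h (adjusted p = 0.0817). *Fh1* overlaps *Kmo* on the opposite strand, and the strand setting of the counting is not given in the sources used here, so reads of the pair may not have been told apart.

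*Idh2* (ENSMUSG00000030541.16, chr7:80094846-80115392, minus strand) was at 16.9, 20.5 and 22.0 CPM in unstimulated WT cultures, at 8.20, 5.69 and 11.1 CPM after LPS 3h and at 10.1, 12.2 and 5.83 CPM after LPS 24h. In *Irg1-/-* cultures it was at 24.6, 37.1 and 22.4 CPM, then at 8.75, 13.2 and 11.6 CPM after LPS 3h and 11.4, 20.6 and 13.1 CPM after LPS 24h. Again no treated culture reached an unstimulated one of its genotype. The log2 fold change after 3 h of LPS was -1.25 ± 0.36 in WT (adjusted p = 0.00799) and -1.33 ± 0.36 in *Irg1-/-* cells (adjusted p = 0.00457). After LPS 24h it was -1.08 ± 0.36 in WT (adjusted p = 0.0353) and -0.90 ± 0.35 in *Irg1-/-* cells (adjusted p = 0.0942), and DESeq2's Wald test gave the latter an adjusted p of 0.0419. The 3 h call in WT was lost without the second LPS 3h culture (-0.99, adjusted p = 0.0647). The 24 h call in WT was lost without any 1 of unstimulated cultures 2 and 3 and LPS 24h cultures 1 and 3, with adjusted p from 0.0554 to 0.136. The 24 h response did not pass as different between genotypes (difference of 0.18 on the log2 scale, 95% interval -0.83 to 1.19).

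Among the SDH subunits, *Sdhb* was the one that passed a threshold. SDHA binds the flavin and oxidizes succinate, SDHB carries the iron-sulfur clusters, and SDHC and SDHD anchor the complex in the inner membrane. *Sdhb* (ENSMUSG00000009863.14, chr4:140961203-140979193, plus strand) stood at 63.7, 52.0 and 27.7 CPM in unstimulated *Irg1-/-* cultures and at 32.2, 24.9 and 16.7 CPM after LPS 3h. The groups overlapped, because the third unstimulated culture was below the first LPS 3h culture. The log2 fold change was -0.95 ± 0.38 (adjusted p = 0.0487), just inside the threshold: 5 of 8 alternatives and 4 of 6 fits without 1 library lost the call, and the value was -0.63 without the first unstimulated culture, -0.82 without the second, -0.89 without the second LPS 3h culture and -0.68 without the third (adjusted p from 0.125 to 0.252). In WT cultures *Sdhb* was at 36.8, 50.5 and 80.1 CPM unstimulated and at 45.7, 33.3 and 34.0 CPM after LPS 3h, a log2 fold change of -0.57 ± 0.37 (adjusted p = 0.260). After LPS 24h it stood at 76.6, 81.6 and 30.9 CPM in WT and at 64.2, 88.1 and 64.4 CPM in *Irg1-/-* cultures. Each *Irg1-/-* LPS 24h culture was above each unstimulated one, but the log2 fold change of 0.60 ± 0.37 did not pass (adjusted p = 0.337).

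*Sdha* (ENSMUSG00000021577.13, chr13:74322254-74350280, minus strand) ranged from 35.3 to 86.7 CPM over the 24 libraries, the narrowest relative range of the 9 genes (2.45 times). In WT cultures it was at 63.1, 71.0 and 79.1 CPM unstimulated, 58.3, 35.3 and 63.6 CPM after LPS 3h, and 86.7, 60.7 and 41.9 CPM after LPS 24h. Its log2 fold changes against unstimulated cells lay between -0.44 ± 0.30 and -0.14 ± 0.30, and each 95% interval spanned 0. *Sdhd* (ENSMUSG00000000171.4, chr9:50596357-50603812, minus strand) had the fewest reads, with 11 to 108 counts and 1.75 to 9.65 CPM per library. Its SE was 0.51 to 0.53, and a change of 1 on the log2 scale lay within 2 SE. *Idh3a*, with 46 to 665 counts, had an SE of similar size (below), and the part of depth in it was not tested. *Sdhc*, the remaining subunit, was at 28.6 to 96.3 CPM and passed in 0 of the 16 comparisons. The WT LPS 24h culture with the lowest *Sdha*, *Sdhb* and *Sdhc* (41.9, 30.9 and 28.6 CPM, culture 3) also had the lowest macrophage marker sum and the lowest mitochondrial read share. Of the 4 SDH assembly factors, *Sdhaf3* (-2.20 ± 0.84, adjusted p = 0.0437) and *Sdhaf4* (-1.16 ± 0.42, adjusted p = 0.0332) were lower in WT LPS 3h cells, and 0 of 4 passed in any other comparison. *Sdhaf3* was at 3.16, 4.39 and 3.27 CPM unstimulated and at 1.28, 0.711 and 0.397 CPM after LPS 3h, and each of these 2 calls was lost in 5 of 6 fits without 1 library (adjusted p from 0.0510 to 0.161), and that of *Sdhaf3* also with the replicate block (0.0533) and the pool as a term (0.0508).

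*Cs*, *Ogdh* and *Idh3a* did not pass in any comparison of LPS with unstimulated cells. *Cs* (ENSMUSG00000005683.7, chr10:128337734-128362479, plus strand), citrate synthase, was at 32.1, 34.8 and 35.1 CPM in unstimulated WT cultures and at 49.2, 40.2 and 57.2 CPM after LPS 3h. These groups did not overlap, but the log2 fold change of 0.52 ± 0.31 did not pass (adjusted p = 0.212, 95% interval -0.11 to 1.16). In *Irg1-/-* cultures it was 0.14 ± 0.31, with unstimulated cultures spread from 22.8 to 56.7 CPM. *Csl*, a near-identical copy, had at most 0.439 CPM. *Ogdh* (ENSMUSG00000020456.17, chr11:6291633-6356642, plus strand), the first component of the oxoglutarate dehydrogenase complex, fell short of the threshold in both genotypes after LPS 3h. It was at 149, 157 and 147 CPM against 99.5, 109 and 116 CPM in WT and at 147, 102 and 145 CPM against 90.2, 82.1 and 98.7 CPM in *Irg1-/-* cultures. All 6 LPS 3h cultures were below the unstimulated cultures of their genotype, with log2 fold changes of -0.48 ± 0.27 (adjusted p = 0.178) and -0.54 ± 0.27 (adjusted p = 0.119).

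*Idh3a* (ENSMUSG00000032279.10, chr9:54586334-54604661, plus strand), the catalytic subunit of the NAD-linked isocitrate dehydrogenase, varied most within a group. It was at 17.8, 10.3 and 13.0 CPM in unstimulated WT cultures, 8.38, 17.2 and 17.0 CPM after LPS 3h, and 8.77, 15.3 and 12.4 CPM after LPS 24h. In *Irg1-/-* cultures it was at 19.0, 17.5 and 27.5 CPM unstimulated, 11.9, 19.4 and 90.1 CPM after LPS 3h, and 45.0, 13.7 and 12.9 CPM after LPS 24h. One culture in each of the latter groups stood apart from the other two, and no response to LPS passed: the log2 fold change after LPS 3h was 0.05 ± 0.52 in WT and 0.91 ± 0.52 in *Irg1-/-* cells (adjusted p = 0.955 and 0.177), and the latter was -0.41 without the culture at 90.1 CPM and 1.42 without LPS 3h culture 1 (adjusted p = 0.0364).

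**Figure D2:**
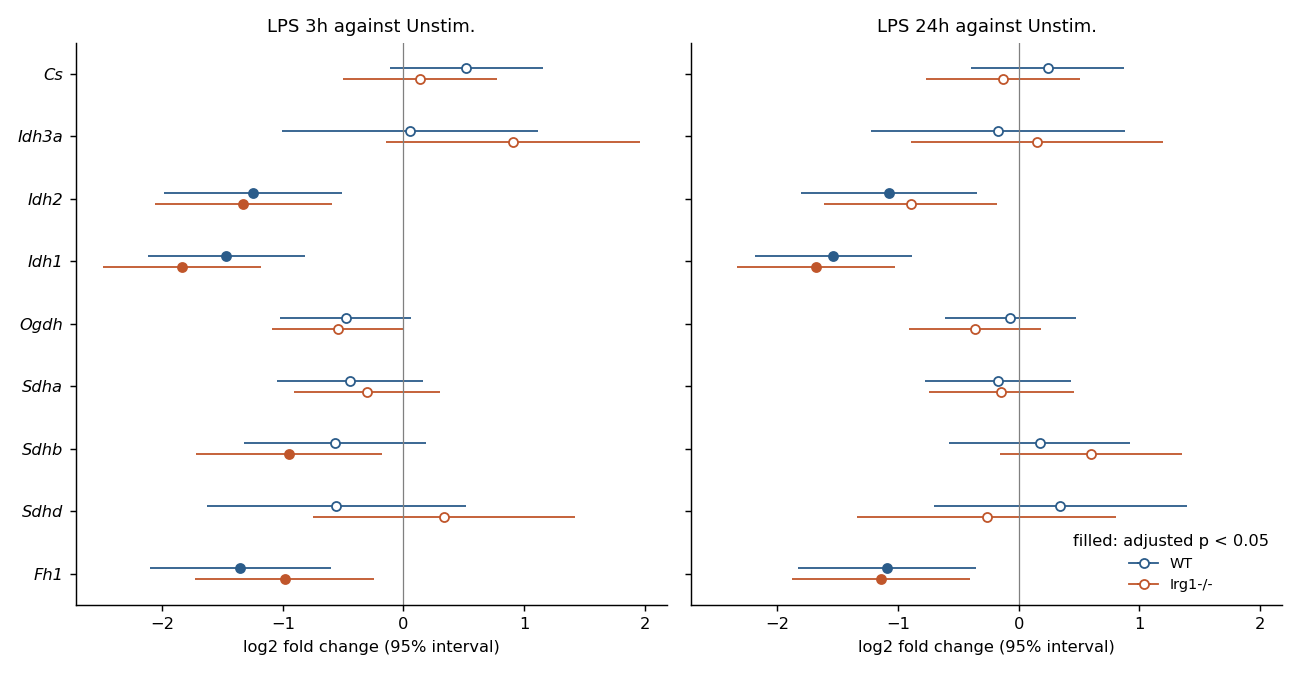
Log2 fold change against unstimulated cells (x axis, points) with its 95% interval (lines) for each gene (y axis, in order of the cycle) after LPS 3h (left) and LPS 24h (right), WT in blue and *Irg1-/-* in orange; filled points have an adjusted p under 0.05. *Idh1* lies furthest to the left in all 4 comparisons, from -1.47 to -1.84, whereas *Cs*, *Idh3a*, *Ogdh*, *Sdha* and *Sdhd* have open points throughout.

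Restimulation was examined against LPS 24h, and tolerized cells were compared with non-tolerized ones. In tolerized cultures *Idh1* was at 40.2, 45.1 and 47.9 CPM in WT and 39.1, 44.5 and 27.9 CPM in *Irg1-/-* cells. All 6 values were below those of the LPS 24h cultures of the same genotype, with log2 fold changes of -0.62 ± 0.31 in WT (adjusted p = 0.319) and -0.86 ± 0.32 in *Irg1-/-* cells (adjusted p = 0.126). Neither passed, and in this comparison 0 of 9 genes passed in either genotype, where 3.99% and 5.14% of all genes did. At an unadjusted p under 0.05 there were 0 of 9 in WT (16.6% of all genes) and 1 of 9, *Idh1*, in *Irg1-/-* cells (15.8%), and DESeq2 called 0 in both.

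Against LPS 3h, 0 of 9 genes passed in WT cells, 2 had an unadjusted p under 0.05 (*Idh1* and *Sdhb*, where 37.2% of all genes did) and DESeq2 called 1, *Idh1* (-0.77, adjusted p = 0.0447, beside -0.69 ± 0.32 and 0.105 with edgeR). Of all genes, 12.4% were called higher and 13.1% lower. In *Irg1-/-* cells *Idh1* was again lower without passing (-0.71 ± 0.32, adjusted p = 0.0934, and 0.0298 by DESeq2), and it passed without LPS 3h culture 3 (-0.97, adjusted p = 0.0338). There 1 of 9 was higher, where 13.1% of all genes were, and 1 of 9 was lower, where 14.1% were. The median of all genes was 0.132 in WT and 0.122 in *Irg1-/-* cells in this comparison, and that of the 9 genes was 0.0167 and -0.128. *Sdhb* was the gene that rose, from 32.2, 24.9 and 16.7 CPM to 68.6, 47.1 and 43.4 CPM, with no overlap (1.10 ± 0.38, adjusted p = 0.0282). The call was lost without LPS 3h culture 2 or 3 or tolerized culture 1 (1.07, 0.87 and 0.84, adjusted p = 0.0740, 0.137 and 0.144) and with the pool as a term (0.90, adjusted p = 0.304), while the 2 cultures that shared pool 2 differed by 1.09. In WT cells *Sdhb* was at 52.0, 90.6 and 50.9 CPM in tolerized cultures, above all 3 LPS 3h cultures, and its log2 fold change of 0.78 ± 0.37 did not pass (adjusted p = 0.127). *Idh3a* was called lower in tolerized *Irg1-/-* cells (-1.76 ± 0.53, adjusted p = 0.0127), at 16.0, 11.8 and 7.82 CPM. This call rested on the LPS 3h culture at 90.1 CPM: without it the value was -0.41 (adjusted p = 0.570), without the third tolerized culture it was -1.55 (adjusted p = 0.0634), with the pool as a term it was 0.44, and the 2 cultures that shared pool 2 differed by 0.42 in the other direction.

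No gene of the 9 passed between genotypes. In unstimulated cells 0 of 9 passed, as against 0.0421% of all genes, 0 had an unadjusted p under 0.05 (5.2% of all genes did) and DESeq2 called 0. In non-tolerized, LPS 24h and tolerized cells the counts were again 0 of 9 (0.00842%, 0.598% and 0.118% of all genes), with 1, 1 and 0 of 9 at an unadjusted p under 0.05 (5.84%, 10.1% and 7.88% of all genes) and 0 called by DESeq2. Over the mean of the 3 LPS treatments 0 of 9 passed (0.337% of all genes), 3 had an unadjusted p under 0.05 (*Idh3a*, *Fh1* and *Ogdh*, where 9.97% of all genes did), and DESeq2 called 0. The 95% intervals were wide enough to hold changes of moderate size. For *Idh1* the mean difference over LPS was -0.17 (95% interval -0.54 to 0.20), for *Sdha* 0.03 (-0.32 to 0.38) and for *Cs* -0.23 (-0.60 to 0.14). *Sdhb* and *Sdhd* had differences of -0.23 (-0.67 to 0.21) and -0.36 (-0.97 to 0.26), and *Idh2* had 0.41 (-0.01 to 0.83).

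Over the LPS treatments, *Idh3a*, *Fh1* and *Ogdh* had intervals on one side of 0 but did not pass after adjustment. *Idh3a* was higher in *Irg1-/-* cells by 0.91 ± 0.30 (adjusted p = 0.256) and passed when no filter on low counts was used (adjusted p = 0.0115). In LPS 3h cells alone its difference was 1.50 ± 0.53 (adjusted p = 0.580), but the 2 cultures that shared pool 2 differed by -0.52, and with the pool as a term it was -0.46. *Fh1* differed by 0.57 ± 0.21 (adjusted p = 0.315). It was at 8.65 to 12.4 CPM in *Irg1-/-* LPS 3h cultures, above the 5.30 to 7.71 CPM of WT, whereas unstimulated cultures (15.6 to 25.6 and 15.7 to 17.1 CPM) and the other LPS groups overlapped. *Ogdh* differed by -0.39 ± 0.15 (adjusted p = 0.360). The highest *Irg1-/-* culture was only just under the lowest WT culture in non-tolerized (98.7 and 99.5 CPM) and tolerized cells (92.9 and 94.0 CPM), both stood at 147.1 CPM in unstimulated cells, and the LPS 24h groups overlapped. *Sdhd* after LPS 24h was the remaining gene with an unadjusted p under 0.05. It was at 3.31, 2.87 and 3.23 CPM in *Irg1-/-* and 3.29, 9.65 and 6.88 CPM in WT cultures (-1.08 ± 0.52, adjusted p = 0.483). The response to LPS 3h, to LPS 24h and to restimulation was compared between genotypes by interaction terms. Each gave 0 of 9 (0.00842%, 0.21% and 0.00842% of all genes), with 0 at an unadjusted p under 0.05 (5.68%, 8.14% and 8.66% of all genes) and 0 called by DESeq2.

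**Figure D3:**
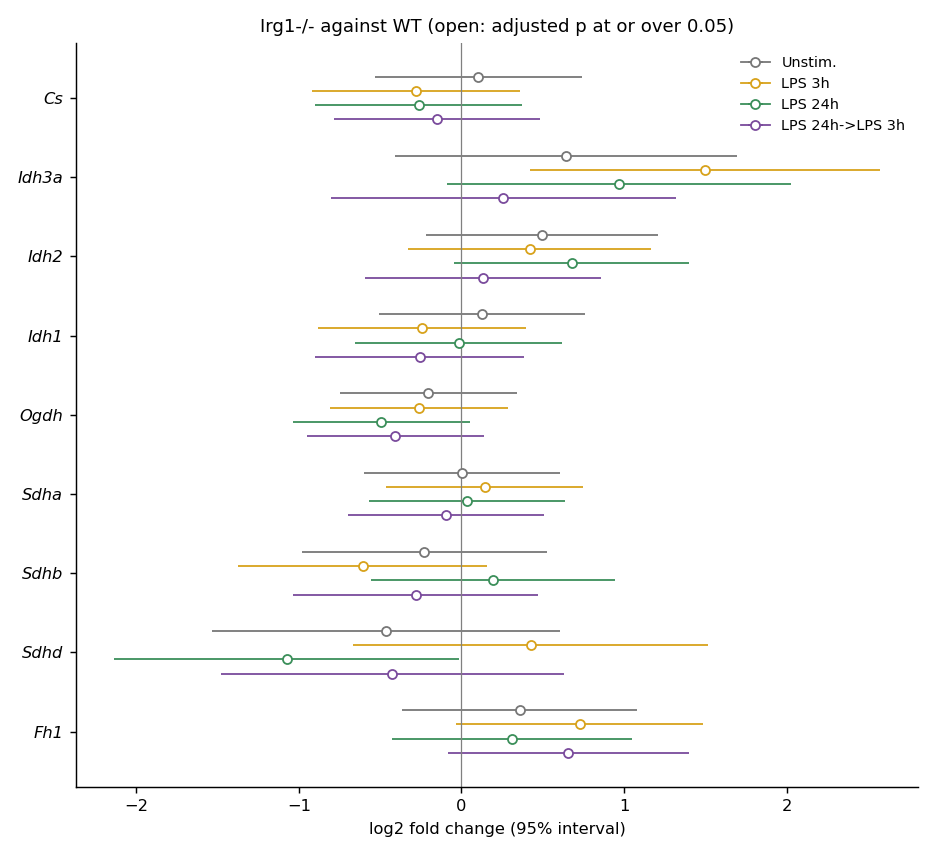
Log2 fold change of *Irg1-/-* against WT (x axis, points) with its 95% interval (lines) for each gene (y axis) in the 4 treatments (colours); open points mark an adjusted p at or over 0.05, and all 36 points are open. *Idh3a* after LPS 3h lies furthest to the right, at 1.50, and *Sdhd* after LPS 24h furthest to the left, at -1.08.

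Of another 11 genes listed with the cycle (cytosolic *Aco1* and *Mdh1* among them), *Dld*, *Suclg2*, *Sucla2* and *Mdh2* passed in at least 1 comparison. Of all genes, 15.8% were called higher and 16.3% lower after LPS 3h in WT, and 17.0% and 18.9% in *Irg1-/-* cells. After LPS 24h it was 9.25% and 6.98% in WT, and 7.31% and 6.38% in *Irg1-/-* cells. Tolerized against non-tolerized, it was 12.4% and 13.1% in WT, and 13.1% and 14.1% in *Irg1-/-* cells. These shares also apply to the lists below. After LPS 3h 1 of 11 was higher and 0 lower in each genotype: *Dld*, the dihydrolipoamide dehydrogenase shared by the oxoglutarate and pyruvate dehydrogenase complexes, rose by 0.89 ± 0.27 in WT (adjusted p = 0.0120) and by 1.45 ± 0.28 in *Irg1-/-* cells (adjusted p = 0.000116). It was at 36.0, 37.7 and 43.2 CPM unstimulated and 78.7, 67.0 and 71.4 CPM after LPS 3h in WT cultures. These calls held with each library left out, while *Ogdh*, of the same complex, had negative values in these comparisons. *Dlst*, a further component of that complex, had positive values that did not pass (0.81 ± 0.35 in WT and 0.22 ± 0.35 in *Irg1-/-* cells, adjusted p = 0.0765 and 0.670). After LPS 24h 1 of 11 was lower and 0 higher in each genotype: *Suclg2*, the GTP-forming subunit of succinyl-CoA synthetase, with -0.96 ± 0.30 in WT (adjusted p = 0.0262) and -1.41 ± 0.30 in *Irg1-/-* cells (adjusted p = 0.00106). The WT call was lost in 4 of 6 fits without 1 library, the smallest fall being -0.75 without the second unstimulated culture (adjusted p = 0.153, from 0.0552 in the others), and with the pool as a term (adjusted p = 0.0636). Restimulation against LPS 24h gave 0 of 11 in both genotypes. In tolerized against non-tolerized WT cells 2 of 11 were higher (*Mdh2*, mitochondrial malate dehydrogenase, by 1.14, and *Sucla2* by 2.03) and 1 was lower, *Suclg2* (-1.63 ± 0.31, adjusted p = 0.000192). *Sucla2* was at 32.2, 225 and 44.7 CPM, and without the culture at 225 CPM its value was 0.62 (adjusted p = 0.300). *Mdh2* lost the call in 4 of 6 fits without 1 library (adjusted p from 0.0560 to 0.0943). In *Irg1-/-* cells *Mdh2* was higher (1.00 ± 0.36, adjusted p = 0.0361) and *Suclg2* lower (-1.02 ± 0.30, adjusted p = 0.0121), the former lost in 5 of 6 fits without 1 library (adjusted p from 0.0573 to 0.159) and the latter without the first tolerized culture (-0.91, adjusted p = 0.0616), and both with the pool as a term (adjusted p = 0.309 and 0.155).

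**Figure D4:**
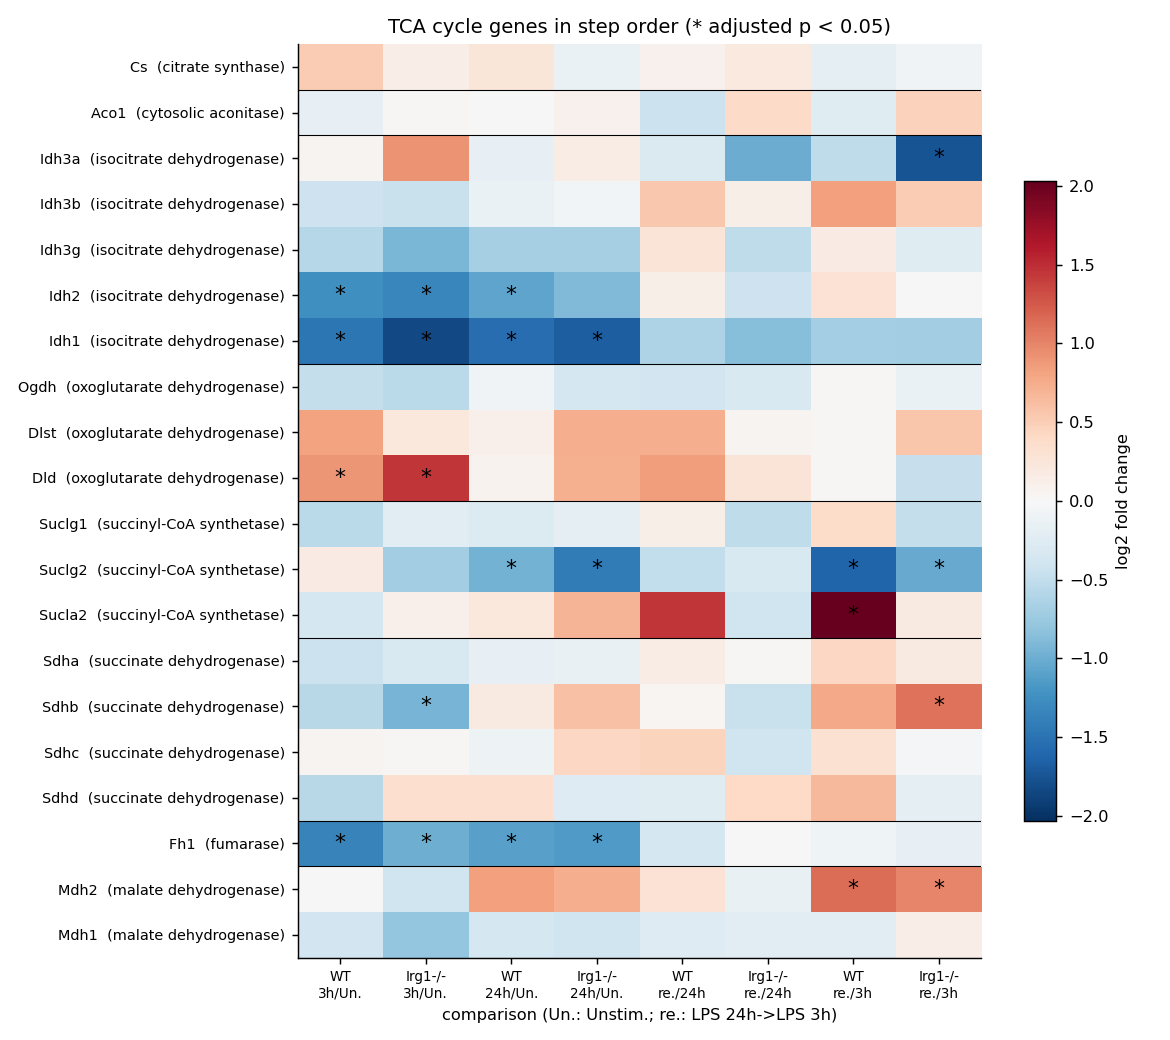
Log2 fold change (colour, red higher and blue lower) of 20 genes listed with the TCA cycle (rows, grouped by step) in 8 comparisons (columns). An asterisk marks an adjusted p under 0.05. Asterisks in the first 4 columns, LPS against unstimulated cells, fall on *Idh2*, *Idh1*, *Dld*, *Suclg2*, *Sdhb* and *Fh1*.

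Genes that bring pyruvate into the cycle (13 genes) were mostly below the threshold. After LPS 3h 2 of 13 were lower in each genotype and 0 higher: *Pdp1*, a phosphatase that activates pyruvate dehydrogenase (-2.44 in WT and -2.64 in *Irg1-/-* cells, adjusted p = 0.000472 and 0.000213), and *Pdpr*, its regulatory subunit (-1.22 and -1.79). After LPS 24h 0 of 13 passed in WT cells. There *Pdk1* had 0.85 ± 0.30 (adjusted p = 0.0502), *Pdpr* -0.69 ± 0.30 (adjusted p = 0.123) and *Mpc1* -0.08 ± 0.30 (adjusted p = 0.912). In *Irg1-/-* cells *Mpc1*, a mitochondrial pyruvate carrier, was lower (-1.38 ± 0.31, adjusted p = 0.00159), as was *Pdpr* (-1.23, lost with the pool as a term, adjusted p = 0.0918), and *Pdk1*, a kinase that inactivates pyruvate dehydrogenase, was higher (0.91 ± 0.30, adjusted p = 0.0418, lost in 5 of 6 fits without 1 library with adjusted p from 0.0504 to 0.147). *Pdp1* was higher in tolerized than in non-tolerized WT cells (1.64, adjusted p = 0.0193), beside 1.30 ± 0.52 in *Irg1-/-* cells (adjusted p = 0.0613). In that comparison 0 of 13 passed in *Irg1-/-* cells, and upon restimulation 0 of 13 passed in either genotype. The *Pdp1* call was lost without LPS 3h culture 2 or 3 or tolerized culture 2 (adjusted p from 0.0626 to 0.172).

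Among 13 genes listed as filling or draining the cycle, *Pck2*, mitochondrial phosphoenolpyruvate carboxykinase, and *Mthfd2* had calls in both genotypes at both times. *Mthfd2* encodes a mitochondrial folate enzyme, which itself neither fills nor drains the cycle. *Pck2* was at 40.5, 29.4 and 35.6 CPM in unstimulated WT cultures and 5.65, 6.88 and 5.03 CPM after LPS 3h (-2.58 in WT and -2.83 in *Irg1-/-* cells), and changed by -1.29 and -1.20 after LPS 24h. *Mthfd2* was at 42.5, 46.5 and 33.9 CPM and 154, 222 and 221 CPM in the same WT cultures, and rose by 2.28 and 2.19 after LPS 3h and by 2.58 and 2.08 after LPS 24h. These were the 2 of 13 that passed in WT cells at either time and in *Irg1-/-* cells after LPS 24h. In *Irg1-/-* cells at 3 h 1 of 13 was higher (*Mthfd2*) and 5 were lower (*Pck2*, *Me2*, *Got1*, *Acly* and *Slc25a11*). Of all genes, 17.0% were higher and 18.9% lower there. With the pool as a term *Me2*, *Got1* and *Acly* lost the call. Without 1 library it was also lost for *Acly* (unstimulated culture 2, adjusted p = 0.0872), *Slc25a11* (unstimulated culture 2 or LPS 3h culture 2 or 3, 0.0669 to 0.0683) and, after LPS 24h, *Pck2* (LPS 24h culture 2, 0.0530), which was lost with the pool as a term there too (-1.12, adjusted p = 0.101). In tolerized against non-tolerized *Irg1-/-* cells 5 of 13 were higher, namely *Pcx*, *Me2*, *Acly*, *Slc25a11* and *Pck2*, and 0 lower, and each of these calls was lost with the pool as a term, those of *Pcx* and *Pck2* also in 4 of 6 fits without 1 library (adjusted p from 0.0510 to 0.123). In WT cells 1 of 13 was, *Slc25a11* (0.84, adjusted p = 0.0398), which was lost in 4 of 6 fits without 1 library (adjusted p from 0.122 to 0.169). Upon restimulation 0 of 13 passed in either genotype. Of 14 tested genes of other mitochondrial functions, 2 were higher after LPS 3h in each genotype and 0 lower. They were *Ppargc1b*, a coactivator of mitochondrial gene transcription (2.06 in WT and 2.62 in *Irg1-/-* cells, adjusted p = 9.84e-06 and 3.29e-07), and the transcription factor *Nrf1* (0.88 and 0.78, adjusted p = 0.0210 and 0.0414), whose calls were lost in 2 of 6 and 4 of 6 fits without 1 library (adjusted p from 0.0713 to 0.132). After LPS 24h and upon restimulation 0 of 14 passed, and *Ppargc1b* was the 1 gene lower in tolerized than in non-tolerized cells of both genotypes (-2.31 and -2.59). *Ppargc1a*, with at most 4 counts, was not tested. Between genotypes 0 genes of the 5 lists passed in any treatment or interaction.

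The genes most like *Idh1* over the 24 libraries, by the root mean square difference of centred log2 CPM, were *Camk1* (0.307), *Rcbtb2* (0.381) and *Syngr1* (0.398), beside a spread of *Idh1* itself of 0.912. *Camk1* averaged 129 CPM in unstimulated WT cultures and 44.0, 34.5 and 26.9 CPM in non-tolerized, LPS 24h and tolerized cells, an order of groups like that of *Idh1* (199, 71.9, 68.4 and 44.4 CPM). For *Fh1* they were *Nnt* (0.353), *Mbtps1* (0.360) and *Hsd17b4* (0.360), beside a spread of 0.650. For the other genes the single nearest is given with its distance and then the spread of the gene itself. It was *Elovl5* for *Idh2* (0.366, 0.641), *Ndufa13*, a complex I subunit, for *Sdha* (0.224, 0.312) and *Msrb1* for *Sdhb* (0.259, 0.619). It was *Pmpcb* for *Cs* (0.255, 0.333), *Zfp148* for *Ogdh* (0.220, 0.351), *Cstf2t* for *Sdhd* (0.412, 0.559) and *Snrpb2* for *Idh3a* (0.583, 0.772). These distances describe the same 24 libraries, which share pools and treatments.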

How the data were processed

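Messenger RNA of 24 BMDM cultures was primed with barcoded oligo-dT, pooled and amplified, and transcript ends were sequenced without molecular identifiers. The authors aligned reads to mm10 with STAR, per the submitters' processing notes, and deposited whole-number counts per gene without normalization. The counting program, annotation and strand setting are not given in the sources used here. Groups came from the sample labels. Of 22165 genes, 21822 were named with GENCODE M21 (GRCm38). The 5 summary lines were left out, and genes held 48.0% to 59.4% of a column. Counts were normalized by TMM, filtered by filterByExpr, and tested with edgeR 4.0.16 (R 4.3.3) by the quasi-likelihood test in a model of 8 groups, with log2 CPM at a prior count of 2. SE is the size of the log2 fold change over the square root of F. DESeq2 1.42.0 and other settings served as alternatives, and the procedure was tested on simulated counts. Named were the 9 genes, the called genes of 5 pathway lists, and the genes nearest to each of the 9. Members and lists were chosen with earlier results of these data known, and differences within a pool were added after seeing the data. Groups of 3 and 3 allow no exact permutation p under 0.1. Replicate numbers were not taken to pair cultures. Correlations of same-numbered deviations ran from -0.102 to 0.337, and 0 of 12 comparisons had all 3 above 0.1. These values do not exclude a pairing, and the replicate number as a term was one of the alternatives. Some genes of the pathway lists are not reported here.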

Additional observations from a re-analysis of the deposited data

How the results depend on the processing

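The number of the 9 genes past the threshold, which was 3, 4, 3 and 2 for LPS 3h in WT and *Irg1-/-* and LPS 24h in WT and *Irg1-/-* cells, 2 for tolerized against non-tolerized *Irg1-/-* cells and 0 elsewhere, stayed within 1.5 times in 120 of 128 alternatives without a library left out. The exceptions were, with the library pool as a term, 2 genes (LPS 3h, *Irg1-/-*), 1 (LPS 24h, *Irg1-/-*) and 0 (tolerized against non-tolerized *Irg1-/-*). With only the groups compared in the fit, 2 genes passed (LPS 3h, *Irg1-/-*). Without a filter on low counts, 1 gene passed after LPS 24h in WT, 1 in *Irg1-/-* cells and 1 between genotypes over the LPS treatments. By DESeq2, 1 passed for tolerized against non-tolerized WT cells. The cause was not tested. With 1 library left out, the counts ran from 2 to 4 (LPS 3h, *Irg1-/-*), from 1 to 2 (LPS 24h in each genotype) and from 1 to 2 (tolerized against non-tolerized *Irg1-/-*).

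With the pool as a term, the sign of values that had not passed turned for *Idh3a* (LPS 3h, *Irg1-/-*, -0.93), *Ogdh* (LPS 24h, 0.21 in WT and 0.12 in *Irg1-/-*), *Sdhb* (LPS 24h, WT, -0.35), *Sdhd* (LPS 24h, *Irg1-/-*, 0.47, and 0.057 between genotypes over LPS) and *Idh3a* between genotypes after LPS 3h (-0.46), and that of 1 called value turned, *Idh3a* in tolerized against non-tolerized *Irg1-/-* cells (0.44, and 0.42 within pool 2). With 1 library left out, values that had not passed changed sign. LPS 3h ranges were -0.074 to 0.36 for *Idh3a* in WT, and in *Irg1-/-* cells -0.41 to 1.42 for *Idh3a*, -0.076 to 0.65 for *Cs* and -0.20 to 0.79 for *Sdhd*. LPS 24h ranges in WT were -0.064 to 0.34 for *Cs*, -0.38 to 0.042 for *Idh3a*, -0.43 to 0.056 for *Ogdh*, -0.099 to 0.50 for *Sdhb* and -0.037 to 0.65 for *Sdhd*, and in *Irg1-/-* cells -0.37 to 0.31 for *Cs* and -0.665 to 0.45 for *Idh3a*. Between genotypes over LPS, *Sdha* ran from -0.029 to 0.13.

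The replicate block, that is, the culture number as a term, left the count of the 9 genes past the threshold unchanged in all 16 comparisons (3 and 4 after LPS 3h, for example). With all libraries kept, the count over all genes moved by more than 1.5 times in 12 of 16 comparisons. Restimulation gave 474 in WT (109 with only the groups compared, 763 by DESeq2) and 611 in *Irg1-/-* cells (1080 with only the groups compared). LPS 3h and tolerance in *Irg1-/-* cells gave 4260 and 3233 (2361 and 1407 with the pool as a term). Between genotypes the counts were 5 unstimulated (0 to 39), 1 after LPS 3h (1 to 32), 71 after LPS 24h (3 to 246), 14 tolerized (4 to 133), 40 over LPS (7 to 152) and 1, 25 and 1 for the interactions (1 to 26, 13 to 112 and 0 to 170), each highest without a filter on low counts. *Sdhd*, with 11 to 108 counts, had the fewest reads of the 9 genes.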
